A study of Mus musculus with 24 samples.

Results

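Kupffer cells are the resident macrophages of the liver. The 10 genes described here, Clec4f, Vsig4, Cd5l, Marco, Timd4, Csf1r, C1qa, C1qb, C1qc and Cd68, are widely used markers of these cells or of macrophages in general. They were chosen by name with earlier results of these data known, so that counts of changed members are descriptive. For each gene the probe set that the array annotation assigns to that symbol alone was read from the deposited expression values. They are 10 of 19938 genes with such a probe set, and each had exactly 1, so that no choice between probe sets of a gene was needed. In a mouse liver, Kupffer cells sit in the sinusoids, where they take up particles, dying cells and bacteria from the portal blood. Their survival depends on signalling through the CSF1 receptor, and they are, with other macrophages, the main source of the complement component C1q, which tags material for uptake and starts the classical complement cascade.

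The study asked what overexpression of the lipogenic transcription factor SREBP-1a, and the loss of its phosphorylation by MAP kinases, does to gene expression in the liver. The 3 genotypes, all male and all on the C57Bl6 background, were sampled at 24 weeks of age on standard chow, with 8 livers each and 1 array per liver. The alb-SREBP-1a∆P mice carry an HA-tagged N-terminal fragment of human SREBP-1a that lacks the MAP kinase phosphorylation sites, the alb-SREBP-1a mice carry the same fragment with these sites intact, and the C57Bl6 mice are wild-type controls. Both transgenes are driven by the albumin promoter, which is active in hepatocytes, whereas the markers measured here belong to macrophages. Total liver RNA (150 ng) was hybridised to Affymetrix Mouse Gene 1.0 ST arrays, and the values are log2 signals, on which a difference of 1 stands for a fold change of 2. Liver RNA pools all cell types. A higher marker signal can therefore come from more macrophages or from more of that RNA in each macrophage, which cannot be told apart in these samples, and the same holds for a lower signal and fewer cells.

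The arrays of the 3 genotypes were not alike as a whole. The standard deviation of all probe sets was 2.02 to 2.09 on the alb-SREBP-1a∆P arrays, 2.14 to 2.23 on the alb-SREBP-1a arrays and 2.18 to 2.25 on the C57Bl6 arrays. When all 35556 probe sets were split into 10 groups by mean signal, the median difference of alb-SREBP-1a∆P against C57Bl6 was 0.37 in the dimmest group and −0.29 and −0.20 in the brightest pair of groups, while in alb-SREBP-1a against C57Bl6 these medians were 0.13, 0.01 and −0.01. Every direction given here follows the genotype labels of the arrays. The sign legend of the study's list of changed transcripts reads the other way, although for C1qc, Fcer1g, Laptm5 and Cd52 the group averages in its supplement run in the direction given here. Of the 10 members, 8 lie in the 2 brightest groups, Timd4 in group 7 and Marco in group 6. For this reason the median of the probe sets of the same brightness is given beside some of the changes that involve alb-SREBP-1a∆P mice. Where it is not given, a change in that line has not been set against this shift of the arrays. The hepatocyte gene Alb, which encodes albumin, was near the top of the scale on all arrays (13.97 to 14.26 in alb-SREBP-1a∆P, 14.04 to 14.31 in alb-SREBP-1a and 14.25 to 14.37 in C57Bl6).

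The stretches upstream of 4 of the genes are shown because C1qb, C1qc and Cd68 gave the largest changes below, and Clec4f, the marker most specific to Kupffer cells in the mouse, is the gene against which they are set later. Each is the 250 bases before the annotated start in RefSeq (build GRCm38.p6), written 5′ to 3′ on the gene's own strand. All 4 genes lie on the minus strand: Clec4f at chr6:83656117-83656366, C1qb at chr4:136886201-136886450, C1qc at chr4:136892915-136893164 and Cd68 at chr11:69666171-69666420. Runs of 6 capitals mark GGAAGT or its complement ACTTCC, the core bound by PU.1 and other ETS factors, and runs of 7 capitals mark TGANTCA, the AP-1 site.
C1qb: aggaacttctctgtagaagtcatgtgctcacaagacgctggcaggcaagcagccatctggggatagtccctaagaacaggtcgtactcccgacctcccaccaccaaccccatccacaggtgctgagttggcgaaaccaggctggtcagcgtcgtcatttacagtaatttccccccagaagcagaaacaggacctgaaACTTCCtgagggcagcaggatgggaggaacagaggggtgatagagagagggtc
C1qc: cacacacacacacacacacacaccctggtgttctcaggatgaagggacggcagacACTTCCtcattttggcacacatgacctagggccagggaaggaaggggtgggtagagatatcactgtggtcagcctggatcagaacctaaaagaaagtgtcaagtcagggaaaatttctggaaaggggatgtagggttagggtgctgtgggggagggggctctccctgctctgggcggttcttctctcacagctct
Cd68: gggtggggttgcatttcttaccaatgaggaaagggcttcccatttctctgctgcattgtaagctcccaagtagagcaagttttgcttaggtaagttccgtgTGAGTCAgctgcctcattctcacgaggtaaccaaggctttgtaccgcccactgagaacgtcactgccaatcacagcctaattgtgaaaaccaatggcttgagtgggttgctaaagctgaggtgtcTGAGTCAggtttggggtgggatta
Clec4f: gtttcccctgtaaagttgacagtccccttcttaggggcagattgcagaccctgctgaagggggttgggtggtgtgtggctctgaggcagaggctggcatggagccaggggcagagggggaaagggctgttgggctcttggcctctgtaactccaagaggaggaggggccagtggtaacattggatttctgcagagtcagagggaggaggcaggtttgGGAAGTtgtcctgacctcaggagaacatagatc
PU.1, the product of Spi1, is the factor without which macrophages do not form. RefSeq windows were given for 8 of the members, of which Clec4f, Vsig4, Timd4, C1qb and C1qc held a GGAAGT core on either strand, and 19.7% of all 32851 windows of this length did so. The core began 53 bases before the C1qb start, 195 bases before the C1qc start and 33 bases before the Clec4f start. Cd68 held 2 AP-1 motifs and was the only member with any, against 6.75% of all windows. The sterol response element bound by SREBP (TCACNCCAC, both strands) was found for Timd4, and for 1.05% of all windows. The motifs do not overlap in these windows, they were chosen with the sequences in view, and a match of letters is no evidence of binding.

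In alb-SREBP-1a∆P livers, 7 of the 10 markers rose against C57Bl6, none fell, and Clec4f, Cd5l and Csf1r did not pass the test. C1qc rose most (2.17-fold), followed by C1qb (1.66-fold) and Cd68 (1.49-fold). In this comparison 47.2% of all probe sets passed in either direction and 27.0% passed with a higher and 20.2% with a lower signal (limma, Benjamini-Hochberg adjusted p under 0.05 over all probe sets). The median log2 change of the 10 members was 0.34, that of all probe sets was 0.11, and the medians of the probe sets of like brightness lay from −0.29 to −0.20 for the 8 bright members.

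In alb-SREBP-1a livers, 8 of the 10 markers rose against C57Bl6 and none fell, where 10.8% of all probe sets passed in either direction, 6.77% with a higher and 3.98% with a lower signal. Marco and Csf1r did not pass. C1qc again rose most (2.25-fold), followed by C1qb (1.91-fold) and Cd68 (1.71-fold). The median log2 change of the members was 0.51, against 0.01 for all probe sets. At an unadjusted p under 0.05 with a change of at least 1.5-fold, 2 members passed in alb-SREBP-1a∆P, where 17.0% of all probe sets did, and 3 passed in alb-SREBP-1a, where 3.92% did. Between the lines no member met this pair of thresholds, where 12.0% of all probe sets did. Both comparisons with wild type use the same 8 C57Bl6 arrays, so that a low or high value among these enters both.

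**Figure D1:**
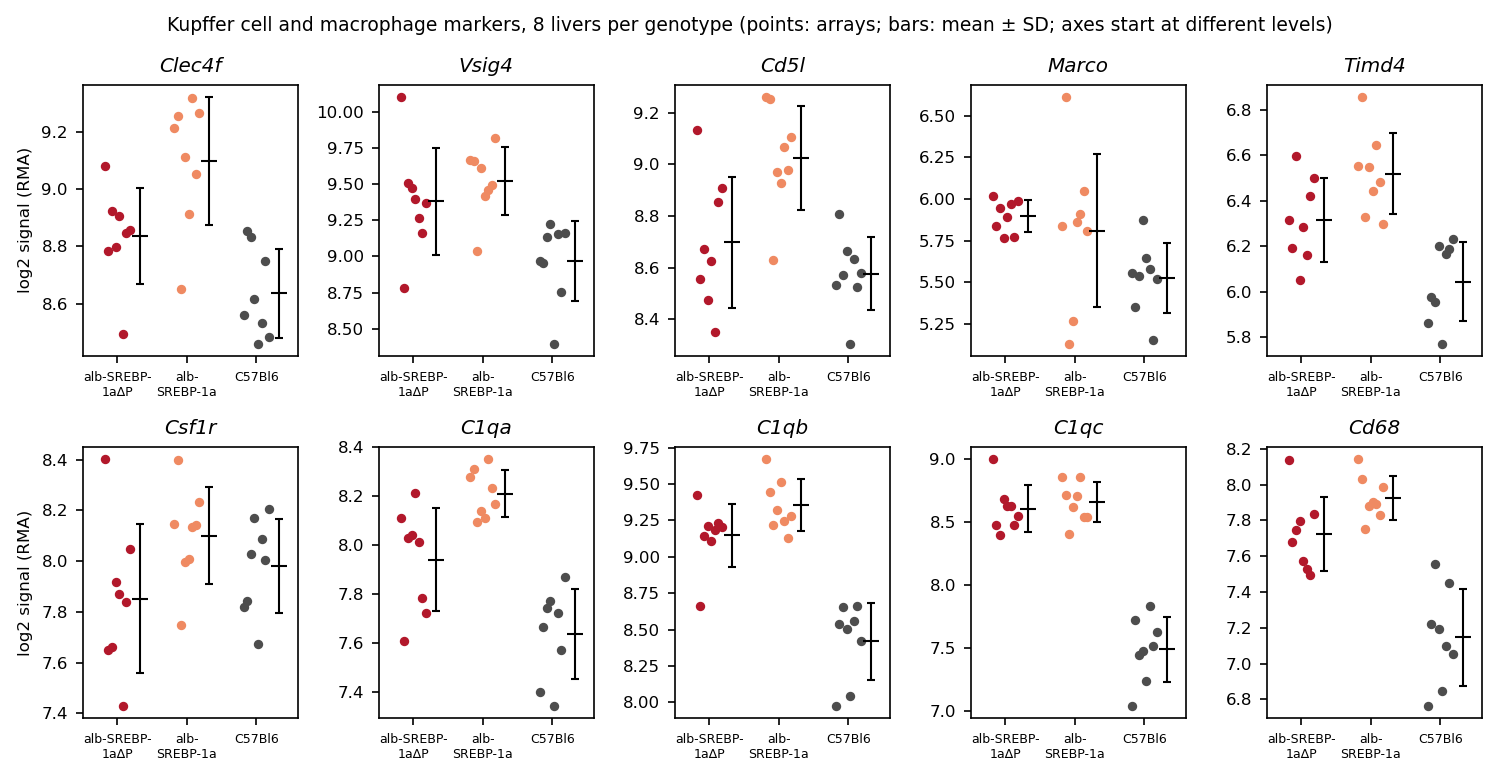
Log2 signal of each marker (vertical axis) on the 24 arrays, by genotype, with the mean and SD beside the points (n = 8). C1qb and C1qc are above every C57Bl6 array in both transgenic lines, whereas the 3 genotypes overlap for Csf1r.

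The C1q genes encode the 3 chains of C1q and lie next to each other on chromosome 4, in the order C1qb, C1qc, C1qa. For C1qc the lowest, median and highest log2 signals were 8.40, 8.59 and 9.0 in alb-SREBP-1a∆P, 8.41, 8.67 and 8.86 in alb-SREBP-1a, and 7.04, 7.50 and 7.83 in C57Bl6 livers. All 8 arrays of each transgenic line were thus above all 8 C57Bl6 arrays, and the lines overlapped over most of their range. The log2 change was 1.12 ± 0.11 (SE, adjusted p = 1.39e-06, limma) in alb-SREBP-1a∆P and 1.17 ± 0.11 (adjusted p = 3.40e-06, limma) in alb-SREBP-1a. Its 95% confidence intervals were 1.84- to 2.56-fold and 1.93- to 2.63-fold. Among all probe sets, 5.34% had every alb-SREBP-1a∆P array above every C57Bl6 array and 2.03% had every alb-SREBP-1a array above them. Of the members, this held for C1qb and C1qc in alb-SREBP-1a∆P, and for Timd4, C1qa, C1qb, C1qc and Cd68 in alb-SREBP-1a.

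C1qb had signals of 8.67, 9.19 and 9.42 (lowest, median, highest) in alb-SREBP-1a∆P, 9.13, 9.30 and 9.67 in alb-SREBP-1a, and 7.98, 8.52 and 8.66 in C57Bl6. A single alb-SREBP-1a∆P liver, replicate 2, was close to the highest C57Bl6 value, and the other 7 lay at 9.11 or above. The log2 change was 0.73 ± 0.12 (SE, adjusted p = 0.000129, limma) in alb-SREBP-1a∆P and 0.93 ± 0.11 (adjusted p = 4.66e-05, limma) in alb-SREBP-1a. C1qa, the third chain gene, had signals of 7.61, 8.02 and 8.21 in alb-SREBP-1a∆P, 8.09, 8.20 and 8.35 in alb-SREBP-1a, and 7.34, 7.70 and 7.87 in C57Bl6. Its alb-SREBP-1a arrays were the most tightly grouped, all above C57Bl6, while 5 of 8 alb-SREBP-1a∆P arrays were above every C57Bl6 array. C1qa rose by 0.30 ± 0.10 (SE, adjusted p = 0.0212, limma) in alb-SREBP-1a∆P and by 0.58 ± 0.080 (adjusted p = 0.000188, limma) in alb-SREBP-1a. Its fold changes were 1.24 (95% confidence interval 1.06 to 1.43) in alb-SREBP-1a∆P and 1.49 (1.33 to 1.67) in alb-SREBP-1a. The chains combine in equal numbers in the assembled protein, of which nothing was measured here.

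Cd68, a glycoprotein of late endosomes and lysosomes found in macrophages of all tissues, had signals of 7.50, 7.71 and 8.13 (lowest, median, highest) in alb-SREBP-1a∆P, 7.75, 7.89 and 8.14 in alb-SREBP-1a, and 6.76, 7.15 and 7.56 in C57Bl6. In alb-SREBP-1a∆P, 6 of 8 livers were above every C57Bl6 liver. The log2 change was 0.58 ± 0.12 (SE, adjusted p = 0.000956, limma) in alb-SREBP-1a∆P and 0.78 ± 0.10 (adjusted p = 0.000145, limma) in alb-SREBP-1a. C1qb, C1qc and Cd68 were the 3 members whose call in alb-SREBP-1a∆P held in every scaling of the arrays and without any of the libraries left out.

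Clec4f, a lectin whose expression in the mouse is restricted to Kupffer cells, had signals of 8.50, 8.85 and 9.08 in alb-SREBP-1a∆P, 8.65, 9.16 and 9.32 in alb-SREBP-1a, and 8.46, 8.59 and 8.85 in C57Bl6. It rose in alb-SREBP-1a (0.46 ± 0.097, SE, adjusted p = 0.00486, limma), where 7 of 8 livers were above every control. In alb-SREBP-1a∆P the change was 0.20 ± 0.087 (adjusted p = 0.0682, limma), and the groups overlapped. There the probe sets of like brightness had a median of −0.20, and Clec4f passed after quantile normalization (0.38, adjusted p = 0.00195, limma) and after cyclic loess (0.46, adjusted p = 0.000486, limma). After centring each array on its median the change was 0.04 (adjusted p = 0.763, limma).

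Vsig4, a complement receptor that captures C3b-coated particles, had signals of 8.78, 9.38 and 10.10 in alb-SREBP-1a∆P, 9.04, 9.55 and 9.82 in alb-SREBP-1a, and 8.40, 9.05 and 9.23 in C57Bl6. The widest spread was in alb-SREBP-1a∆P, where replicate 1 gave the highest and replicate 2 the lowest value. Vsig4 rose by 0.41 ± 0.16 (SE, adjusted p = 0.0380, limma) in alb-SREBP-1a∆P and by 0.55 ± 0.12 (adjusted p = 0.00756, limma) in alb-SREBP-1a. Without alb-SREBP-1a∆P replicate 1 the first of these was 0.31 (adjusted p = 0.0647, limma). Timd4, a phosphatidylserine receptor of long-lived resident macrophages, had signals of 6.05, 6.30 and 6.60 in alb-SREBP-1a∆P, 6.30, 6.52 and 6.86 in alb-SREBP-1a, and 5.77, 6.07 and 6.23 in C57Bl6. All alb-SREBP-1a livers were above all controls, and 5 of 8 alb-SREBP-1a∆P livers were. Its log2 change was 0.27 ± 0.095 (SE, adjusted p = 0.0261, limma) in alb-SREBP-1a∆P and 0.48 ± 0.091 (adjusted p = 0.00245, limma) in alb-SREBP-1a.

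Cd5l, a secreted protein that macrophages make under the control of the oxysterol receptor LXR, had signals of 8.35, 8.65 and 9.13 in alb-SREBP-1a∆P, 8.63, 9.02 and 9.26 in alb-SREBP-1a, and 8.31, 8.58 and 8.81 in C57Bl6. It rose in alb-SREBP-1a (0.45 ± 0.090, SE, adjusted p = 0.00361, limma), with 7 of 8 livers above every control. In alb-SREBP-1a∆P its change was 0.12 ± 0.10 (adjusted p = 0.357, limma) as deposited, 0.38 after cyclic loess (adjusted p = 0.00473, limma) and −0.04 after centring each array on its median. Nr1h3, which encodes the LXR of macrophages and hepatocytes, fell by 0.23 ± 0.088 (SE, adjusted p = 0.0368, limma) in alb-SREBP-1a∆P and had a change of −0.02 in alb-SREBP-1a (adjusted p = 0.906, limma). In alb-SREBP-1a∆P the list of lineage regulators that holds Nr1h3 had a like-brightness median of −0.20. A link between the changes of Nr1h3 and Cd5l was not tested.

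Marco is a scavenger receptor for bacteria and particles. Its signals were 5.77, 5.92 and 6.02 in alb-SREBP-1a∆P, 5.13, 5.85 and 6.61 in alb-SREBP-1a, and 5.15, 5.55 and 5.87 in C57Bl6. The alb-SREBP-1a livers spanned the whole range of the other genotypes, and the alb-SREBP-1a∆P livers the narrowest. Marco rose in alb-SREBP-1a∆P (0.37 ± 0.089, SE, adjusted p = 0.00273, limma, with a median of 0.11 for probe sets of like brightness) but not after quantile normalization (0.23, adjusted p = 0.0618, limma). In alb-SREBP-1a its change was 0.28 ± 0.17 (adjusted p = 0.323, limma).

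Csf1r, the receptor for CSF1 and IL-34 on all cells of the macrophage lineage, was the only member that passed in neither line. Its signals were 7.43, 7.85 and 8.40 in alb-SREBP-1a∆P, 7.75, 8.14 and 8.40 in alb-SREBP-1a, and 7.67, 8.02 and 8.21 in C57Bl6, so that all 3 genotypes overlapped. Its log2 change was −0.13 (95% confidence interval −0.38 to 0.13, adjusted p = 0.397, limma) in alb-SREBP-1a∆P and 0.12 (−0.08 to 0.32, adjusted p = 0.474, limma) in alb-SREBP-1a. The sign of the first of these turned with quantile normalization (0.04) and cyclic loess (0.14).

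**Figure D2:**
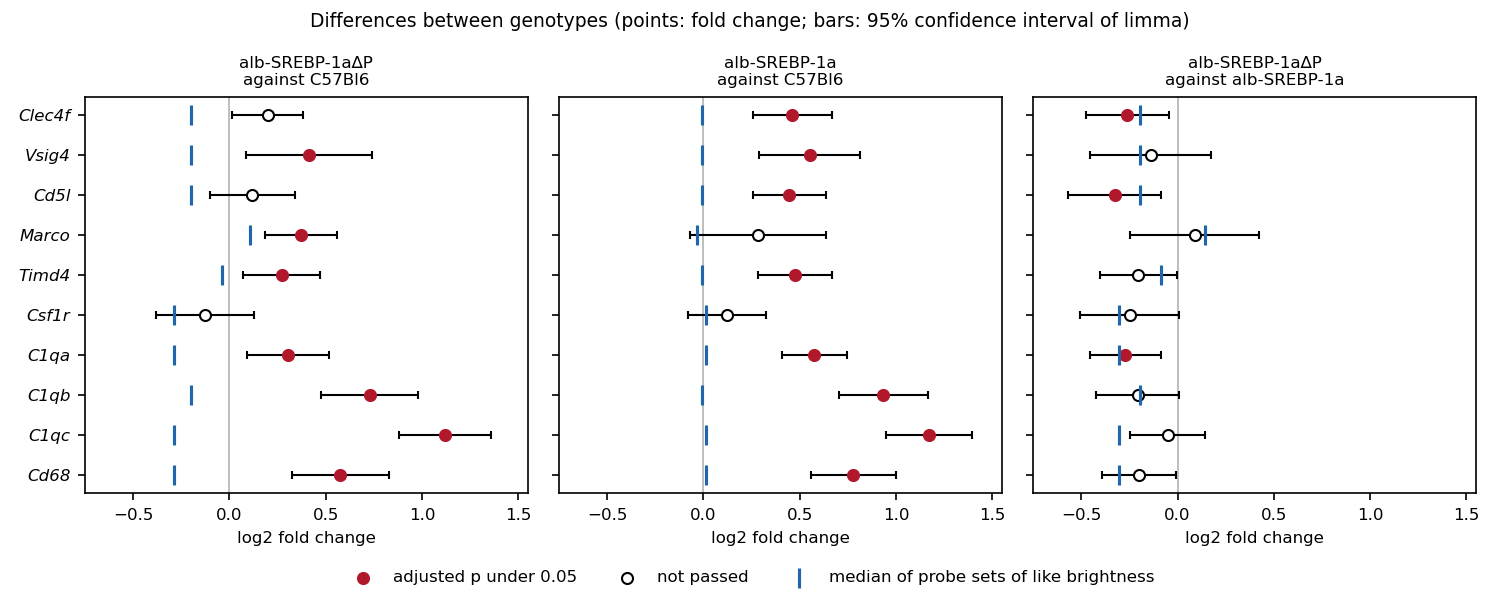
Log2 fold change of the 10 markers (points) with the 95% confidence interval of limma (bars) in the 3 comparisons, filled where the adjusted p was under 0.05, with the median of probe sets of like brightness as a blue tick. In the comparison of the lines most points lie near the ticks, while C1qb, C1qc and Cd68 lie far above them against C57Bl6.

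The direct comparison sets the line without the phosphorylation sites against the line with them. These are separate transgenic lines, and their arrays also differed as a whole. A difference between them therefore cannot be assigned to the sites alone. Clec4f (−0.26 ± 0.10, SE, adjusted p = 0.0461, limma), Cd5l (−0.33 ± 0.11, adjusted p = 0.0302, limma) and C1qa (−0.27 ± 0.088, adjusted p = 0.0211, limma) were lower in alb-SREBP-1a∆P livers than in alb-SREBP-1a livers, none was higher, and 7 members did not pass. Among all probe sets 44.2% passed in either direction, 22.8% with a higher and 21.4% with a lower signal. The median change of the 10 members was −0.21, and the medians of probe sets of like brightness were −0.20 for Clec4f and Cd5l and −0.31 for C1qa. After quantile normalization and after cyclic loess no member passed in this comparison. After centring on the array median 7 fell, where 11410 of all 35556 probe sets fell and 3582 rose. By cyclic loess Clec4f and C1qa were each at 0.01 and Cd5l at −0.05. For C1qc, the member with the largest change in both lines, the difference between them was −0.05 with a 95% confidence interval of −0.25 to 0.14, and for C1qb it was −0.21 (−0.42 to 0.01).

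**Figure D3:**
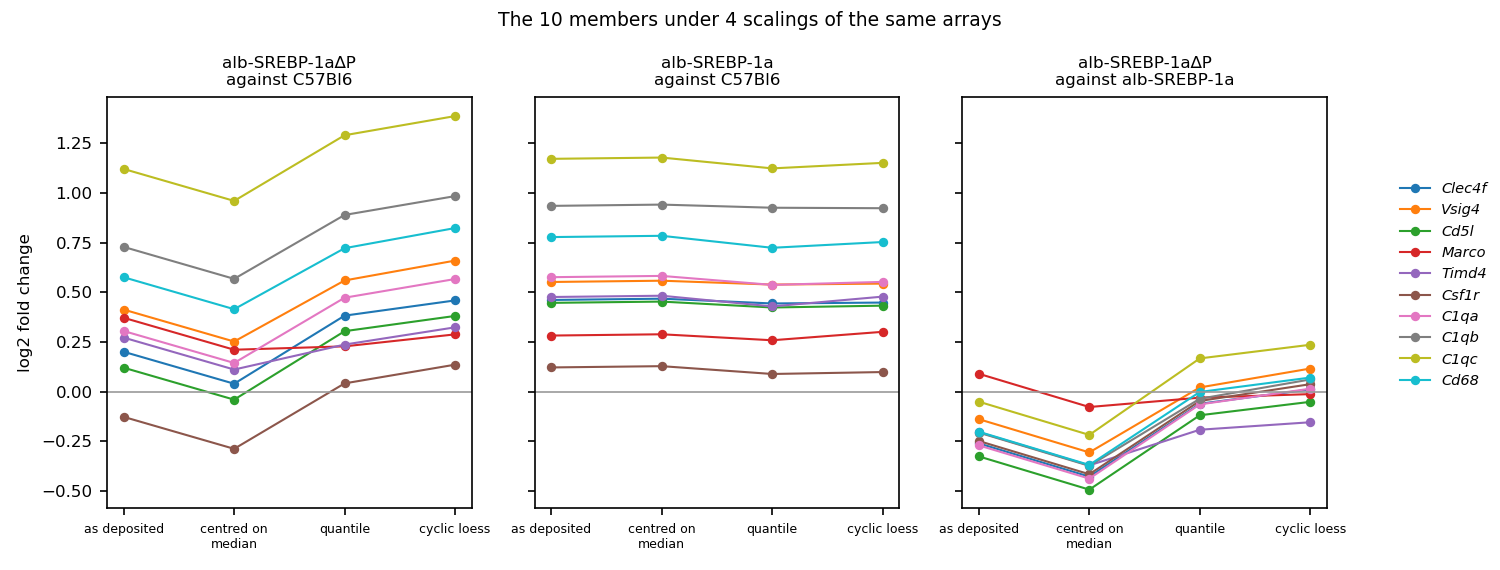
Log2 fold change (vertical axis) of the 10 markers with the values as deposited and after 3 further scalings of the same arrays. In alb-SREBP-1a against C57Bl6 the lines are nearly flat, whereas those of both comparisons with alb-SREBP-1a∆P are lower after centring on the median, and higher after quantile normalization and cyclic loess except for Marco and, after quantile normalization against C57Bl6, Timd4.

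Whether the markers changed by a common factor was examined within each array. The log2 signal of Clec4f was subtracted from that of each other member, and the difference was compared between genotypes by an exact two-sided permutation test over the 12870 splits of 8 against 8 arrays (27 tests, Benjamini-Hochberg adjusted). Relative to Clec4f, C1qc was higher than in C57Bl6 by 0.92 in alb-SREBP-1a∆P (exact p = 0.000155, the smallest these permutations can give, adjusted p = 0.00420) and by 0.71 in alb-SREBP-1a (exact permutation p = 0.000311, adjusted p = 0.00420). C1qb was higher by 0.53 in alb-SREBP-1a∆P and by 0.47 in alb-SREBP-1a (exact permutation test, adjusted p = 0.00503 each). Cd68 was higher by 0.38 in alb-SREBP-1a∆P (exact permutation test, adjusted p = 0.00503) and by 0.32 in alb-SREBP-1a (adjusted p = 0.00719). Csf1r was lower relative to Clec4f, by −0.33 in alb-SREBP-1a∆P (exact permutation test, adjusted p = 0.0309) and by −0.34 in alb-SREBP-1a (adjusted p = 0.00719). The other 5 genes, Vsig4, Cd5l, Marco, Timd4 and C1qa, did not pass against C57Bl6 in either line, and none of the 9 passed between the lines. These contrasts between genes say that the changes in log2 signal were unequal, not that any of them was unchanged. Subtracting Clec4f does not remove the part of the array shift that depends on brightness. In alb-SREBP-1a∆P the like-brightness median was −0.20 for Clec4f and C1qb, and −0.29 for C1qc, Cd68 and Csf1r.

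The livers within a genotype varied together. With the genotype means removed, all 45 pairs of members had a positive Pearson correlation over the 24 arrays, with a median r of 0.49 and a range of 0.04 to 0.78, and 21 pairs were above 0.5. The points share the array and its scaling, and no test was made. Cd5l and Csf1r were closest (0.78), followed by Clec4f with Cd5l (0.77) and Vsig4 with Csf1r (0.76). Marco stood apart, with a median r of 0.29 and 0.04 with C1qb. The livers at the ends were few. Replicate 1 of alb-SREBP-1a∆P was the highest of its group for 8 members, replicate 3 of alb-SREBP-1a the lowest for 8, and replicates 5 and 1 of C57Bl6 the lowest for 6 and 3. Without these C57Bl6 replicates, 4 members rose in alb-SREBP-1a∆P (Marco, C1qb, C1qc and Cd68) in place of 7, and 8 still rose in alb-SREBP-1a. Without replicate 1 of alb-SREBP-1a∆P 6 members rose in that line.

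**Figure D4:**
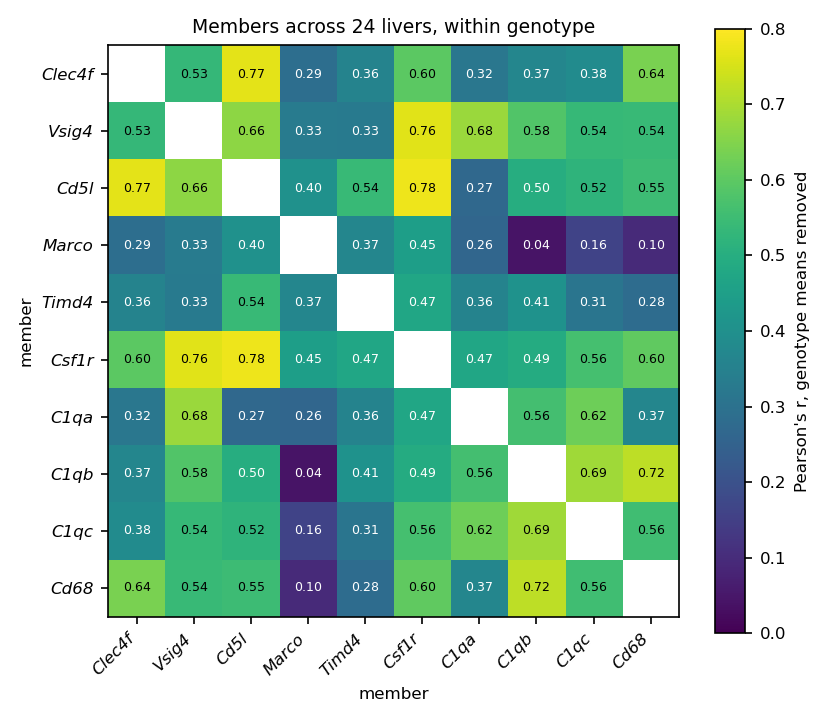
Pearson correlation between members over 24 livers after subtraction of each genotype's mean, from 0 (dark) to 0.8 (light). Pairs among Cd5l, Csf1r, Vsig4 and Clec4f lie from 0.53 to 0.78, and those among C1qb, C1qc and Cd68 from 0.56 to 0.72. Pairs across these sets reach 0.64 (Clec4f with Cd68), C1qa has 0.68 with Vsig4, and the row of Marco is dark.

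Of 19928 other genes, those whose signal varied most like the mean of the 10 members within genotypes, over the 24 arrays, were Cfp (r = 0.91), Wfdc17 (0.87), Axl (0.87), Laptm5 (0.87), Lyz2 (0.85), Polr2l (0.83), Ifi30 (0.83) and Treml4 (0.82). Cfp encodes properdin, which stabilises the alternative complement convertase, Laptm5 a lysosomal membrane protein of blood cells, Lyz2 the lysozyme of macrophages and Ifi30 a lysosomal thiol reductase. Cfp rose in both lines, by 0.48 ± 0.11 (SE, adjusted p = 0.00263, limma) in alb-SREBP-1a∆P and by 0.57 ± 0.12 (adjusted p = 0.00383, limma) in alb-SREBP-1a. Polr2l, which is on none of the macrophage lists used below, rose more than Cfp. Its changes were 0.80 ± 0.10 (adjusted p = 1.20e-05, limma) in alb-SREBP-1a∆P and 1.00 ± 0.10 (adjusted p = 1.30e-05, limma) in alb-SREBP-1a. A likeness to the members is thus not a mark of macrophage genes alone. Lyz2 passed in neither (−0.03 ± 0.19 in alb-SREBP-1a∆P, 0.27 ± 0.18 in alb-SREBP-1a), though it varied with the members from liver to liver.

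Further genes of macrophages were read from lists of fixed membership, which were also chosen with earlier results of these data known. Of 8 other Kupffer cell genes, 2 rose and 3 fell in alb-SREBP-1a∆P, while 2 rose in alb-SREBP-1a against C57Bl6. Il18bp, an inhibitor of IL-18, and Folr2, a folate receptor of resident macrophages, rose in both, by 0.37 and 0.33 in alb-SREBP-1a∆P and by 0.31 and 0.39 in alb-SREBP-1a. Slc40a1, the iron exporter ferroportin, had signals of 8.53, 8.71 and 9.10 (lowest, median, highest) in alb-SREBP-1a∆P, 9.22, 9.28 and 9.36 in alb-SREBP-1a, and 9.11, 9.52 and 9.89 in C57Bl6. All alb-SREBP-1a∆P livers were below all livers of the other genotypes, and the gene fell by 0.78 against C57Bl6 (adjusted p = 8.84e-05, limma). Clec1b and Mrc1, a C-type lectin and the mannose receptor, also fell in alb-SREBP-1a∆P, by 0.45 and 0.42. After cyclic loess only 1 gene of the list fell and 2 rose in that comparison, and after centring none rose and 4 fell.

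Of 7 regulators of the lineage, Spi1 rose in alb-SREBP-1a (0.76 ± 0.098, SE, adjusted p = 0.000101, limma, 8 of 8 livers above every control) and in alb-SREBP-1a∆P (0.31 ± 0.12, adjusted p = 0.0452, limma, 5 of 8). Its difference between the lines (alb-SREBP-1a∆P minus alb-SREBP-1a) was −0.45 (adjusted p = 0.00959, limma). Id3, a helix-loop-helix protein that Kupffer cells require, had signals of 6.61, 6.90 and 7.25 in alb-SREBP-1a∆P, 7.12, 7.54 and 7.96 in alb-SREBP-1a, and 7.58, 7.86 and 8.17 in C57Bl6. Every alb-SREBP-1a∆P liver was below every control, with a fall of 0.96 (adjusted p = 2.64e-06, limma), while in alb-SREBP-1a the change was −0.37 ± 0.12 (adjusted p = 0.0594, limma). Id3 is also made by other liver cells. In all, 1 regulator rose and 2 fell in alb-SREBP-1a∆P, 2 rose in alb-SREBP-1a, and 4 were lower in alb-SREBP-1a∆P in the direct comparison. By cyclic loess 3 regulators rose and 1 fell in alb-SREBP-1a∆P, and after centring none rose and 3 fell.

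Among 6 ligands, receptors and survival factors, Csf1 did not pass in either line (0.10 in alb-SREBP-1a∆P, 0.14 in alb-SREBP-1a). Il34, the other ligand of the CSF1 receptor, rose in alb-SREBP-1a∆P (0.24, adjusted p = 0.0383, limma) and was at 0.00 in alb-SREBP-1a. In all, 2 of these genes rose and 1 fell in alb-SREBP-1a∆P, while 2 rose in alb-SREBP-1a. After centring none rose and 2 fell in alb-SREBP-1a∆P. Of 10 scavenging and efferocytosis genes, 1 rose and 4 fell in alb-SREBP-1a∆P, while 2 rose in alb-SREBP-1a. Mertk, a receptor for apoptotic cells, had calls in opposite directions. It fell by 0.28 in alb-SREBP-1a∆P (adjusted p = 0.00471, limma, like-brightness median −0.23), whereas it rose by 0.23 in alb-SREBP-1a (adjusted p = 0.0170, limma, like-brightness median 0.01). In alb-SREBP-1a∆P, 1 gene of this list fell and none rose after quantile normalization, and 1 fell and 1 rose by cyclic loess. After centring 6 fell and none rose.

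Of 8 genes for Fc receptors and for adaptors that signal through ITAM motifs, 6 rose in alb-SREBP-1a, as they did in number under each of the 3 other scalings, and 5 rose and 1 fell in alb-SREBP-1a∆P, where the other scalings gave 2 to 4. Fcer1g, the shared signalling chain of Fc receptors, had signals of 7.47, 7.67 and 8.06 in alb-SREBP-1a∆P, 7.68, 8.0 and 8.17 in alb-SREBP-1a, and 6.97, 7.10 and 7.29 in C57Bl6, with no overlap between either line and the controls. It rose by 0.62 (adjusted p = 4.62e-05, limma) in alb-SREBP-1a∆P and by 0.84 (adjusted p = 5.20e-06, limma) in alb-SREBP-1a. Laptm5 rose by 0.67 (adjusted p = 1.26e-05, limma) in alb-SREBP-1a∆P and 0.99 (adjusted p = 1.05e-05, limma) in alb-SREBP-1a. Of 10 lysosome and phagosome genes, 1 rose in alb-SREBP-1a∆P and 3 in alb-SREBP-1a. In the alb-SREBP-1a∆P livers 4 rose by quantile normalization and by cyclic loess, while 2 fell after centring. Cd52, a small surface glycoprotein of leukocytes, was called in both, at 0.59 (adjusted p = 1.55e-05, limma) in alb-SREBP-1a∆P and 0.99 (adjusted p = 2.43e-06, limma) in alb-SREBP-1a.

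For the rest of the classical and lectin complement pathways, which hepatocytes make for the most part, the counts depended on the line and on the scaling. Of 10 such genes, 1 rose and 3 fell in alb-SREBP-1a∆P (median −0.13, like-brightness median −0.20), while 3 rose and none fell in alb-SREBP-1a (median 0.04). C1ra, a protease that binds C1q, fell by 0.48 in alb-SREBP-1a∆P (adjusted p = 0.00556, limma) and was at 0.05 in alb-SREBP-1a (adjusted p = 0.848, limma). C1s1, its partner protease, did not pass in either (−0.18 in alb-SREBP-1a∆P, 0.02 in alb-SREBP-1a). C3ar1, the receptor for C3a on myeloid cells, rose by 0.36 in alb-SREBP-1a∆P (adjusted p = 0.0354, limma) and by 0.66 in alb-SREBP-1a (adjusted p = 0.00435, limma). After quantile normalization and after cyclic loess 2 of the 10 rose and none fell in alb-SREBP-1a∆P, and after centring 6 fell.

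**Figure D5:**
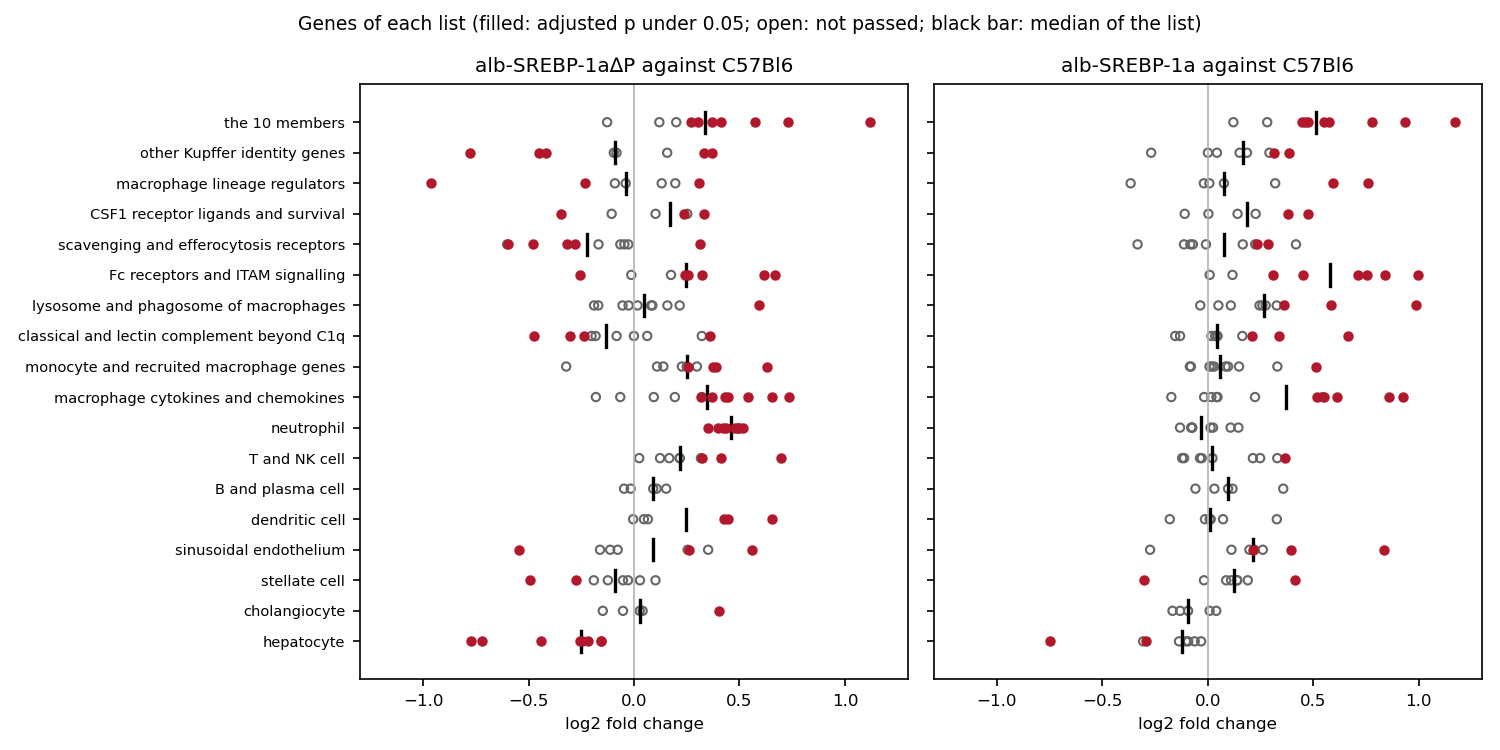
Log2 fold change against C57Bl6 of the genes of each list (1 row per list, filled where the adjusted p was under 0.05), with the list's median as a bar. The medians of the members and of the Fc receptor list are 0.34 and 0.25 in alb-SREBP-1a∆P and 0.51 and 0.58 in alb-SREBP-1a, and the neutrophil list is at 0.46 and −0.03.

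With the values as deposited, the counts for several markers of other cells differed between the lines. Of 8 neutrophil genes, all rose in alb-SREBP-1a∆P (median 0.46) and none passed in alb-SREBP-1a (median −0.03), but these are dim probe sets, whose like-brightness median in alb-SREBP-1a∆P was 0.27, and 1 of 8 passed under each other scaling. The mean log2 signal of this list was 4.78 to 5.12 in alb-SREBP-1a∆P, 4.39 to 4.59 in alb-SREBP-1a and 4.35 to 4.67 in C57Bl6. Of 10 genes of monocytes and recruited macrophages, 4 rose in alb-SREBP-1a∆P, where 27.0% of all probe sets did, and 1 in alb-SREBP-1a, where 6.77% did. In alb-SREBP-1a∆P the median of this list was 0.25, with a like-brightness median of 0.23. The other scalings left 1 or 2 of these genes rising in that line, and after centring 1 fell. Itgax (0.63) and Cx3cr1 (0.37) were among those that rose in alb-SREBP-1a∆P as deposited, and Ccr2 (0.30, adjusted p = 0.0524, limma) and Trem2 (0.23, adjusted p = 0.0922, limma) did not pass. Of 12 cytokines and chemokines, 7 rose in alb-SREBP-1a∆P (4 or 5 under the other scalings) and 5 in alb-SREBP-1a. Ccl6, which mouse macrophages make, rose by 0.44 in alb-SREBP-1a∆P and 0.52 in alb-SREBP-1a, and Ccl2, which attracts monocytes, by 0.74 in alb-SREBP-1a∆P with 0.05 in alb-SREBP-1a. Tnf did not pass in either (0.09 in alb-SREBP-1a∆P, 0.04 in alb-SREBP-1a).

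Of 9 T and NK cell genes, 3 rose in alb-SREBP-1a∆P and 1 in alb-SREBP-1a, and of 6 dendritic cell genes 3 rose in alb-SREBP-1a∆P (none by quantile normalization or cyclic loess) and none in alb-SREBP-1a. None of 5 B and plasma cell genes passed in either. Of 8 genes of the sinusoidal endothelium, 2 rose and 1 fell in alb-SREBP-1a∆P (5 and 1 by cyclic loess, 4 and 1 by quantile normalization, 1 and 3 after centring), while 3 rose in alb-SREBP-1a, with Gpr182 at 0.56 in alb-SREBP-1a∆P and 0.84 in alb-SREBP-1a. Of 8 stellate cell genes, 2 fell and none rose in alb-SREBP-1a∆P, while 1 rose and 1 fell in alb-SREBP-1a. By cyclic loess 1 of these fell and 2 rose in alb-SREBP-1a∆P, by quantile normalization 2 fell and 1 rose, and after centring 6 fell and none rose. Of 5 cholangiocyte genes, 1 rose in alb-SREBP-1a∆P (none by quantile normalization or cyclic loess, where 1 fell) and none in alb-SREBP-1a. All 8 hepatocyte genes fell in alb-SREBP-1a∆P (median −0.25, like-brightness median −0.20, with 4 calls by cyclic loess) and 2 fell in alb-SREBP-1a (median −0.12). The part that any of these shifts has in the marker changes was not tested.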

How the data were processed

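Liver RNA of 24 male mice (8 per genotype, 1 array each) was hybridised to Affymetrix Mouse Gene 1.0 ST arrays. The values as deposited by the authors are log2 signals, which they summarised by RMA in Expression Console 1.1. No source used here gives the other settings of RMA. The table held 35556 probe sets with no missing value, from 0.833 to 15.0. By the array's annotation 21789 probe sets carry 1 gene symbol (19938 genes), 1621 several and 12146 none, and only the first kind was used to name genes. Each library is an array, so no depth applies, and the number of arrays limits the precision. No pair of arrays was identical (highest correlation 0.990).

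Each pair of genotypes was compared with limma 3.58.1 (R 4.3.3) on the deposited log2 values, with lmFit and eBayes, no covariate and no filter, and p-values were adjusted by Benjamini-Hochberg over all 35556 probe sets with a threshold of 0.05. The unit of replication is the mouse. Probe sets of like brightness are the tenth of all probe sets, by mean over 24 arrays, that holds the gene. The change relative to Clec4f was tested by exact permutation. The alternatives were centring on the array median, quantile normalization, cyclic loess, leaving out dim probe sets, a variance trend, array weights, the methods' t-test, 1 fit of all arrays, a replicate block, the mean of a gene's probe sets, and leaving out arrays. The code was tested on simulated data.

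No label says whether the replicate numbers pair the mice, and the main comparison has no block. The members, the gene lists and the arrays left out were chosen with earlier results of these data known. Named genes were the members, up to 4 genes per list with the smallest p in alb-SREBP-1a∆P against wild type, the 8 genes most like the members, and list genes on which a result turns. Some genes of the lists were not analysed here, and each list's counts are over the genes that were. Promoter windows came from RefSeq (GRCm38.p6).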

Additional observations from a re-analysis of the deposited data

Results flagged for a closer look

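C1qb in alb-SREBP-1a∆P replicate 2 stood apart from the other 7 livers of its genotype. Its log2 signal was 8.67 and the nearest other value was 9.11, a gap of 0.586 of the group's whole range, above Dixon's 95% critical value for 8 samples. It was 1 of 30 groups tested (10 members in 3 genotypes), and chance marks about 1 group in 20. The call for C1qb in this line held without the other arrays that were left out, and this array itself was not left out.

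The changes against C57Bl6 differed between the lines for 3 members, as tested by the direct comparison of alb-SREBP-1a∆P with alb-SREBP-1a livers (limma, 8 arrays each). The change in alb-SREBP-1a∆P was smaller than that in alb-SREBP-1a for Clec4f (difference −0.26), for Cd5l (−0.33) and for C1qa (−0.27). The wild-type arrays cancel in these differences. None of the 3 passed after quantile normalization or cyclic loess.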

How the results depend on the processing

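In alb-SREBP-1a against C57Bl6, the 8 members that rose passed under all alternatives but the threshold of 1.5-fold (3 members and 1395 probe sets), and of 150 member values under alternatives 145 kept their direction and their side of the threshold. In alb-SREBP-1a∆P against C57Bl6 this held for 122 of 150, and between the lines for 125 of 160. The 8 of 27 changes relative to Clec4f that passed kept theirs in all 48 values. The others were recomputed as well, but their values are not given here, so that the 48 cover only changes that had passed.

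In alb-SREBP-1a∆P against C57Bl6, where 7 members were called, the count was 3 after centring on the array median, 2 at 1.5-fold and 4 without C57Bl6 replicates 1 and 5. Of all 35556 probe sets, 14974, 6058 and 15305 were called at these settings, in that order. Between the lines, where 3 were called, it was 0 after quantile normalization, after cyclic loess, at 1.5-fold and without alb-SREBP-1a replicates 1 and 2. It was 7 after centring, 5 with array weights, and without a single array it lay from 1 (alb-SREBP-1a∆P replicate 4) to 5 (alb-SREBP-1a∆P replicate 1). Of all probe sets, 14992 were called after centring, 18308 with array weights, and 15809 and 15808 without these single arrays. With the replicate number as a block 1 member and 13749 probe sets were called between the lines. The block left 6 of 7 and 8 of 8 members called in the comparisons of alb-SREBP-1a∆P and of alb-SREBP-1a with C57Bl6, with 16207 and 3163 probe sets. Samples of the same number did not deviate together (median correlations 0.04, 0.05 and 0.01 over 8 pairs each, with 3, 2 and 2 samples closest to their own number).

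Some signs turned, and by cyclic loess between the lines also those of Clec4f and C1qa, which passed there as deposited. Against C57Bl6, Csf1r in alb-SREBP-1a∆P was at 0.041 (quantile) and 0.14 (loess), and Cd5l at −0.041 (centred). Between the lines quantile normalization gave Vsig4 0.021, Marco −0.031 and C1qc 0.17, centring gave Marco −0.078, and cyclic loess gave Clec4f 0.011, Vsig4 0.12, Marco −0.013, Csf1r 0.037, C1qa 0.014, C1qb 0.061, C1qc 0.24 and Cd68 0.070. Marco lay between −0.0075 and 0.11 without a single array. The cause was not tested.

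Across all probe sets, the 16777 calls of alb-SREBP-1a∆P against C57Bl6 became 11117 (loess), 9858 (without dim probe sets) and 6058 (1.5-fold). The 15712 calls between the lines became 8319 (quantile), 7706 (loess), 10136 (without dim probe sets) and 4253 (1.5-fold). The share of calls with a higher signal was 57.1% in alb-SREBP-1a∆P against C57Bl6 as deposited, 40.6% by quantile normalization, 31.9% after centring and 29.6% without dim probe sets. It was 63.0% and 51.6% (quantile) in alb-SREBP-1a against C57Bl6, and 51.6%, 41.1% (quantile), 23.9% (centred) and 24.5% (without dim probe sets) between the lines. The median over all probe sets of the change in alb-SREBP-1a∆P from C57Bl6 was 0.11 as deposited, −0.03 by quantile normalization, −0.05 after centring and 0.00 by loess.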
